A study of Homo sapiens with 8 samples.

Results

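The 8 transfer RNA genes on the minus strand of human mitochondrial DNA, MT-TP, MT-TE, MT-TS1, MT-TY, MT-TC, MT-TN, MT-TA and MT-TQ, were followed in exosomes and in the cells that release them. They were taken by name from count tables of 2709 non-coding RNA features, and all 8 had reads in every library. The exosome libraries (n = 5) were made from vesicles shed into the medium of bioreactor cultures by MEC-1, an established cell line of leukaemic B cells (chronic lymphocytic leukaemia). The cell libraries (n = 3) were made from MEC-1 cells themselves, the parental cells of these exosomes. No treatment or genetic change is named for either group, and the small RNA fraction was sequenced from both. Vesicles were pelleted by repeated ultracentrifugation with a density cushion. The design text pairs the cell samples with 3 of the 5 exosome samples without naming these. Medium was cleared of serum exosomes except in the upper compartment of the bioreactor. The labels do not say whether replicates are separate cultures; p-values therefore cover the spread of these libraries alone, and that spread may be technical. The series concerns the effect of such exosomes on monocytes, and this comparison asks how the RNA of exosomes differs from that of their source cells.

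Mitochondrial DNA is a compact circle read on both strands into long precursor RNAs. The tRNAs lie between the other genes like punctuation, RNase P cuts at their 5′ ends and ELAC2 at their 3′ ends, and TRNT1 adds the terminal CCA. The minus-strand precursor starts at the light-strand promoter and carries these 8 tRNAs and the mRNA of MT-ND6, a subunit of respiratory complex I. The tRNAs serve translation inside the organelle, each bringing its amino acid to the mitochondrial ribosome.

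The sequences of the 8 tRNAs are shown because they share a base composition that sets them apart from the plus-strand tRNAs. They were read from GENCODE release 29 (GRCh38), in which all 24 mitochondrial features of the tables have the same coordinates as in the deposited GRCh37 tables. Each is given 5′ to 3′ as the minus-strand gene, without the CCA tail and with T for U, in the order in which the light-strand transcript reads them. Capitals mark the anticodon, placed by its 7-base loop closed by a stem of 5 pairs.
MT-TP: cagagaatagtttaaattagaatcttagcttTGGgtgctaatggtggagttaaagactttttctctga
MT-TE: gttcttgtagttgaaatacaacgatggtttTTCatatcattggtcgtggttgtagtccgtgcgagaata
MT-TS1: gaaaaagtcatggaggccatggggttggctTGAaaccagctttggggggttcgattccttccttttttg
MT-TY: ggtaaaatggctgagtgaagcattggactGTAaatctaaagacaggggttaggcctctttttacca
MT-TC: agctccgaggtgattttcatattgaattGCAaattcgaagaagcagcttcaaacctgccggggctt
MT-TN: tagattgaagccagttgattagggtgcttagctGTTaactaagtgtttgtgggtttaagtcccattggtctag
MT-TA: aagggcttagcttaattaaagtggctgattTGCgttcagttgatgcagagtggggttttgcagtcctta
MT-TQ: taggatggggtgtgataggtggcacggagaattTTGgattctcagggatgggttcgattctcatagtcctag

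All 8 tRNAs held more G than C, with G at a median of 28.0% of bases (23.5% to 36.1%) and C at 13.04% (10.3% to 21.2%). Among the 14 plus-strand mitochondrial tRNAs, G was at a median of 15.4% (10.3% to 19.1%), and 1 of the 14 had more G than C. MT-TQ was the richest in G of the 8, and MT-TC had the smallest excess of G over C, 3.03 percentage points. In other respects the 8 differed, with a median identity of 49.1% over the 28 pairs (41.1% to 59.5%, global alignment).

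**Figure D1:**
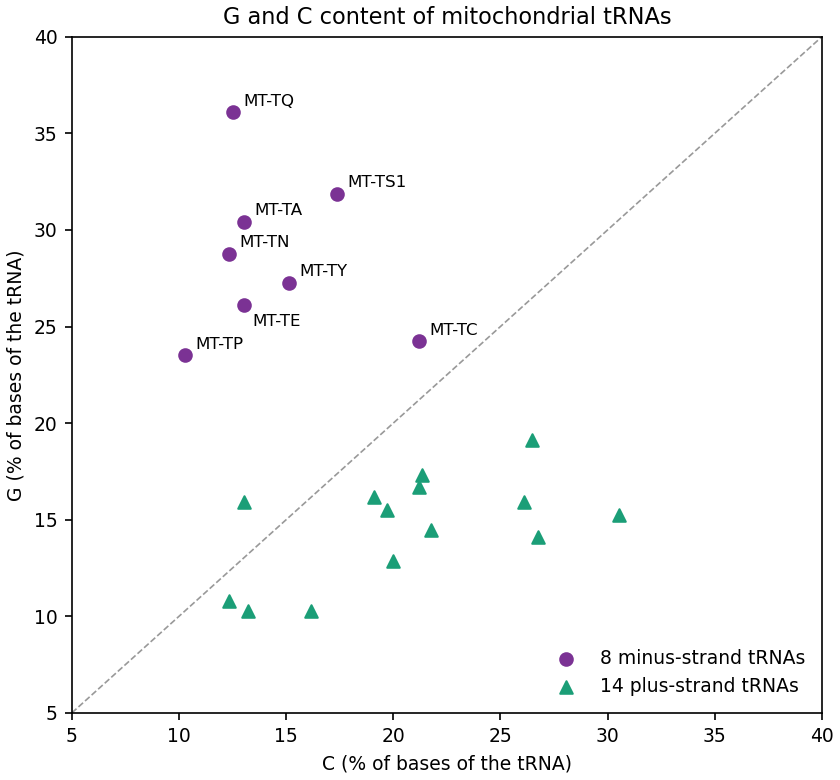
G against C as percent of the bases of each mitochondrial tRNA, for the 8 minus-strand tRNAs (circles, named) and the 14 plus-strand tRNAs (triangles), with a dashed line where both are equal. All 8 minus-strand tRNAs lie above the line, and 1 of the 14 plus-strand tRNAs does.

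Their genes lie apart on the circle. MT-TA (5587 to 5655, GRCh37 coordinates of the mitochondrial chromosome here and below), MT-TN (5657 to 5729), MT-TC (5761 to 5826) and MT-TY (5826 to 5891) form a run in which MT-TC and MT-TY share 1 base. MT-TQ (4329 to 4400) shares 3 bases with MT-TI on the other strand. MT-TS1 (7446 to 7514) abuts MT-CO1, MT-TE (14674 to 14742) abuts MT-ND6 on its own strand, and MT-TP (15956 to 16023) lies 2 bases from MT-TT. The strand setting of the read counting is not given in the sources used here, so reads of a tRNA and of the opposite strand cannot be told apart from these counts. A numbered feature, 23560, that repeats the interval of MT-TL1 had the same count in all 8 libraries, so reads over shared bases may stand in both features. Counts per gene do not tell whole tRNAs from fragments.

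Depth was 23353820 to 32436286 counts per exosome library, against 25675636 to 57323598 per cell library. Mitochondrial features took 1.04% to 8.71% of counts in exosome libraries, with exosomes 2 (4.76%) and 3 (8.71%) highest, and 0.705% to 1.51% in cell libraries. Of 6 blood-lineage miRNAs listed as a check of the label, 2 could be matched, MIR150 and MIR181A1, and their summed level was 300.1 to 485 CPM in exosomes and 131 to 427 CPM in cells. Of 13 miRNAs typical of other tissues, 9 were matched; their sum was 138 to 297 CPM in exosomes and 88.8 to 109.8 CPM in cells. CPM are counts relative to the library total after scaling by TMM factors, so a level is relative to the other RNA of its library. These factors ran from 0.524 (exosome 5) to 1.46 (exosome 4) in exosomes, and from 0.552 (cell 2) to 1.42 (cell 1) in cells. Fewer vesicles with a tRNA and less of it per vesicle cannot be told apart.

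The main pattern was a higher minus-strand part of mitochondrial tRNA counts in exosomes. The 8 tRNAs made up 64.2%, 67.7%, 78.0%, 75.2% and 58.7% of the counts on the 22 mitochondrial tRNAs in exosomes 1 to 5, against 29.1%, 34.9% and 35.3% in cells 1 to 3. The groups did not overlap, with exosome 5 the lowest of its group and cell 3 the highest of its own. The mean was 68.8% ± 7.89 in exosomes and 33.1% ± 3.44 in cells (SD, n = 5 and 3); as a sum over genes chosen with earlier results known, it was given no test. The ratio of minus-strand to plus-strand tRNA counts was 1.42 to 3.54 in exosomes and 0.411 to 0.545 in cells. The separation held among tRNAs and not with the 2 plus-strand rRNAs added: of all 24 mitochondrial features the 8 took 41.2%, 30.8%, 54.9%, 52.3% and 26.8% of counts in exosomes 1 to 5, against 18.9%, 31.6% and 23.5% in cells 1 to 3. There exosomes 2 and 5 lay below cell 2.

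How far the groups parted depended on a pair of abundant tRNAs. Without MT-TE in either sum, the remaining 7 took 28.1% to 54.2% of tRNA counts in exosomes and 15.1% to 18.7% in cells, still without overlap. MT-TF, the plus-strand phenylalanine tRNA, was singled out after its values were seen because it led the other strand in cells. It took 14.7%, 13.1%, 11.0%, 12.96% and 25.2% of tRNA counts in exosomes 1 to 5, against 39.0%, 60.6% and 36.7% in cells 1 to 3. Without both MT-TE and MT-TF the groups overlapped, at 42.2% to 71.3% in exosomes and 28.4%, 77.0% and 32.9% in cells 1 to 3, with cell 2 above every exosome library.

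**Figure D2:**
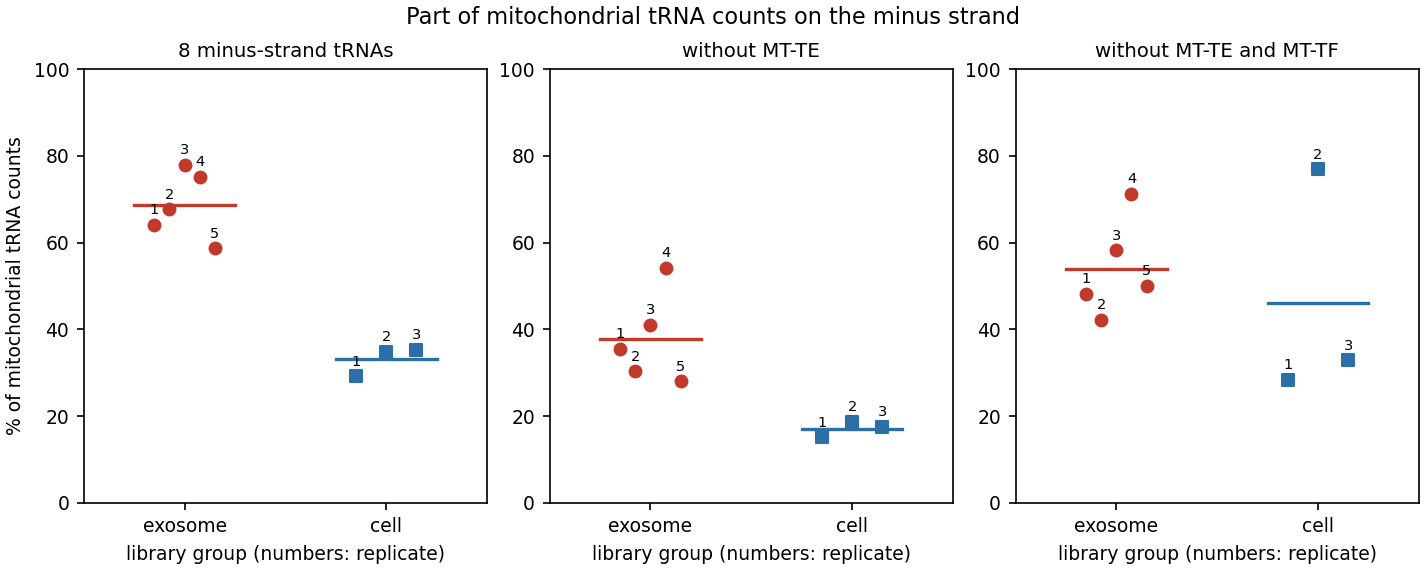
Part of mitochondrial tRNA counts that fell on minus-strand tRNAs, in percent, per library (points, with replicate numbers; bars are means), for all 22 tRNAs, without MT-TE in either sum, and without MT-TE and MT-TF. Exosomes lie at 58.7% to 78.0% and cells at 29.1% to 35.3% on the left, and the groups overlap on the right through cell 2.

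As part of all counts, the 8 tRNAs took 0.523%, 1.47%, 4.79%, 1.44% and 0.279% in exosomes 1 to 5, against 0.245%, 0.223% and 0.355% in cells 1 to 3. Here the groups overlapped, since exosome 5 lay below cell 3. The mean was 1.70% ± 1.81 in exosomes and 0.274% ± 0.0708 in cells, a difference of 1.43 percentage points that was 0.653 without exosome 3. The 14 plus-strand tRNAs took 0.196% to 1.35% in exosomes and 0.416% to 0.652% in cells.

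Gene by gene, 3 of the 8 rose in exosomes (MT-TE, MT-TA and MT-TQ), none fell and 5 stayed without a call. The test was edgeR's quasi-likelihood test, with a call at an adjusted p under 0.05 over all features. Of all 1178 features tested, 20.7% were called higher and 22.3% lower, 43% in either direction. The 3 of 8 called higher are to be read against the 20.7%. The median log2 fold change, exosome over cell, was 1.47 for the 8 and -0.09 for all features. For the 14 plus-strand tRNAs it was 0.73, with 1 higher (MT-TT, log2 1.803, adjusted p = 0.0358) and none lower, and of the 2 rRNAs 1 was higher. In 2 of the 8, MT-TE and MT-TA, every exosome library lay above every cell library in TMM-scaled CPM, as did 21.6% of all features. All 8 passed the filter on low counts.

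**Figure D3:**
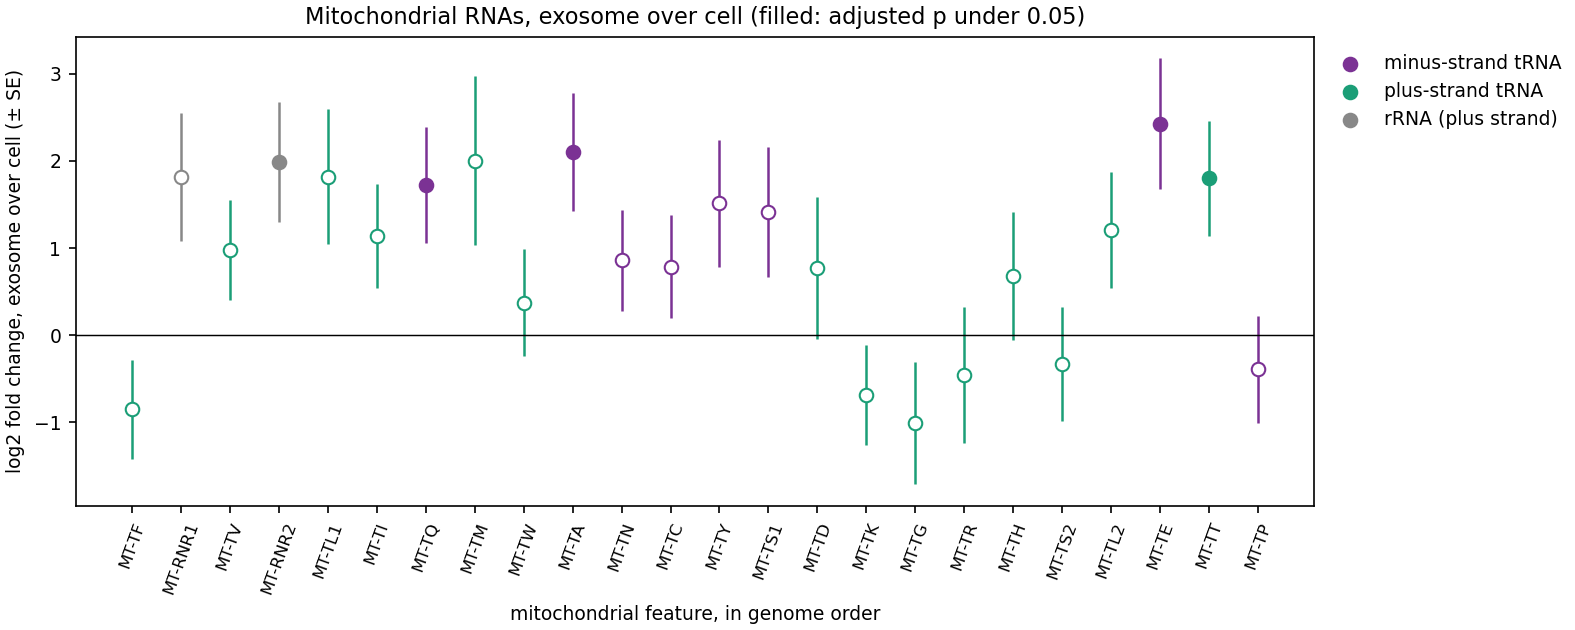
Log2 fold change, exosome over cell, with its standard error, for the 24 mitochondrial features in genome order; purple marks minus-strand tRNAs, green plus-strand tRNAs, grey rRNAs, and filled points an adjusted p under 0.05 in edgeR's test. MT-TE is highest at 2.43, and MT-TP is the only minus-strand tRNA below 0, at -0.39.

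MT-TE, the glutamate tRNA beside MT-ND6, was the most abundant of the 8 in every library. It had 2994.5, 10719, 27303, 6030 and 3863 CPM in exosomes 1 to 5, against 980 CPM in cell 1, 2306 in cell 2 and 2394 in cell 3. In these TMM-scaled values all 5 exosome libraries lay above all cell libraries, with exosome 3 far above the rest. Before TMM scaling the groups overlapped. MT-TE had 55265 of 27316077 counts in exosome 5, a smaller part than the 124196 of 57323598 in cell 3. The mean was 10182 ± 10028 CPM in exosomes and 1893 ± 792 CPM in cells, 5.38-fold higher (log2 2.43, SE 0.75, edgeR adjusted p = 0.0163). The call was lost without cell 1 (log2 2.03, adjusted p = 0.0754). It was kept with total-count scaling in place of TMM (log2 3.00, edgeR adjusted p = 0.00208).

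MT-TY, the tyrosine tRNA, was second in every library. It had 721, 1490, 4464, 3049 and 889 CPM in exosomes 1 to 5, against 239 CPM in cell 1, 1417 in cell 2 and 574 in cell 3. Cell 2 lay above exosomes 1 and 5, so the groups overlapped. The log2 fold change was 1.51 (SE 0.73, edgeR adjusted p = 0.105, not called), and MT-TY was called without cell 2 (2.36, edgeR adjusted p = 0.0428), with total-count scaling (2.32, adjusted p = 0.0177) and under 4 other settings.

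MT-TQ, the glutamine tRNA, was the third most abundant in all exosome libraries. Its values were 189, 511, 931, 336.5 and 161 CPM in exosomes 1 to 5, against 118, 75.9 and 192 CPM in cells 1 to 3. Exosomes 1 and 5 lay just under cell 3, so this call came from overlapping groups. It was 3.31-fold higher (log2 1.72, SE 0.66, edgeR adjusted p = 0.0459). That p passed 0.05 without exosome 2 (0.0658), exosome 3 (0.0666), cell 1 (0.139) or cell 2 (0.165) and with limma-voom (0.0583), and the log2 value was 2.44 without cell 3.

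MT-TA, the alanine tRNA, was scarce but separated the groups in TMM-scaled CPM. It had 59.1, 99.2, 287, 119 and 56.3 CPM in exosomes 1 to 5, against 37.0, 14.7 and 35.1 CPM in cells 1 to 3. By these values every exosome library lay above every cell library, exosome 3 again highest. Before TMM scaling the groups overlapped. MT-TA had 805 of 27316077 counts in exosome 5, a smaller part than in cell 1 (1349 of 25675636) or cell 3 (1819 of 57323598). The mean was 124 ± 94.7 CPM in exosomes and 28.9 ± 12.4 CPM in cells, 4.29-fold higher (log2 2.10, SE 0.67, edgeR adjusted p = 0.0192). The call was lost without cell 2 (log2 1.71, adjusted p = 0.0955) and kept with total-count scaling (log2 2.35, edgeR adjusted p = 0.0275).

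The other members of the run, MT-TN for asparagine and MT-TC for cysteine, were not called. MT-TN had 170, 299, 433, 169 and 149 CPM in exosomes 1 to 5, against 90.0, 84.8 and 228 CPM in cells 1 to 3 (log2 0.86, SE 0.58, adjusted p = 0.248). MT-TC had 65.2, 64.1, 74.2, 40.4 and 43.2 CPM in exosomes 1 to 5, against 24.3, 12.6 and 62.8 CPM in cells 1 to 3 (log2 0.79, SE 0.59, adjusted p = 0.299). In both, cell 3 lay within the exosome range, and without cell 3 both were called (log2 1.81 and 1.93, edgeR adjusted p = 0.0462 and 0.0286). MT-TC was the steadiest of the 8 across exosomes, with 1.84-fold between its highest and lowest library, where MT-TE spanned 9.12-fold.

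MT-TS1, the serine tRNA for UCN codons, had 22.5, 102, 154, 72.8 and 33.3 CPM in exosomes 1 to 5, against 33.8, 6.25 and 46.4 CPM in cells 1 to 3. The groups overlapped, and the log2 fold change of 1.42 was not called (SE 0.74, edgeR adjusted p = 0.135); with no filter on low counts it was (1.63, adjusted p = 0.0416). Its lowest value, in cell 2, rested on 188 counts (95% exact Poisson interval 162 to 217). Set against MT-TS2, the plus-strand serine tRNA for AGY codons, its count per base was 0.101 to 0.246 of that of MT-TS2 in exosomes and 0.0454 to 0.0614 in cells, without overlap. MT-TS2 itself was at a log2 fold change of -0.32 and not called (adjusted p = 0.724).

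MT-TP, the proline tRNA that the light-strand transcript reaches first, was the exception in sign. It had 104, 234, 373, 69.4 and 134 CPM in exosomes 1 to 5, against 206, 120 and 393 CPM in cells 1 to 3. The groups overlapped widely, with the highest value in cell 3. The log2 fold change was -0.39 (SE 0.61, edgeR adjusted p = 0.641), and its sign turned without exosome 4 (0.11) or cell 3 (0.47). In genome order its neighbour is MT-TT, which was called higher. MT-TP reads per base were 1.04 to 4.85 times those of MT-TT in exosomes and 6.62 to 18.9 times in cells, without overlap.

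**Figure D4:**
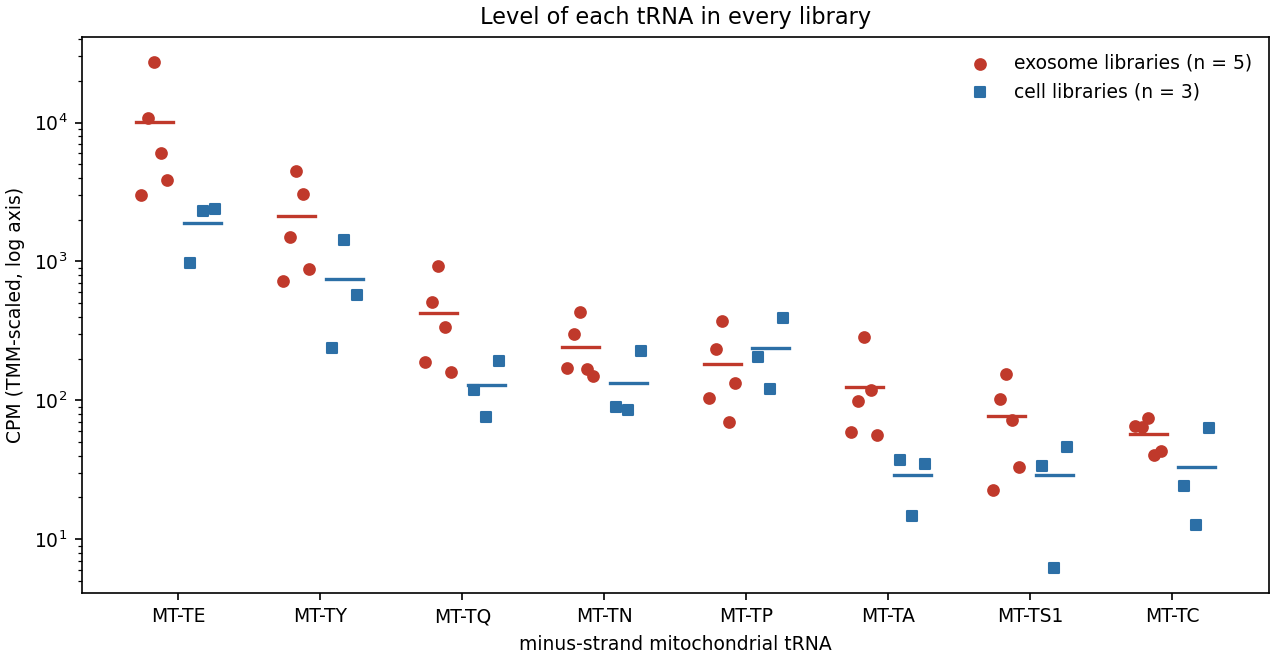
Level of each minus-strand tRNA in every library, as TMM-scaled CPM on a log axis; red circles are exosome libraries (n = 5), blue squares cell libraries (n = 3), and bars are means. MT-TE and MT-TA show no overlap between groups, and MT-TP is the tRNA whose cell mean lies above its exosome mean (183 CPM in exosomes, 240 CPM in cells).

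Ratios of counts per base within a library, which no scaling can change, showed where neighbours on opposite strands parted. MT-TS1 exceeded MT-TD, 3 bases away, by 1.45-fold to 4.15-fold in exosomes and by 1.17-fold to 1.36-fold in cells, without overlap. The ratio of MT-TA to MT-TW was 2.08 to 7.96 in exosomes and 0.923 to 2.82 in cells, and that of MT-TQ to MT-TI was 2.01 to 11.3 in exosomes and 4.00 to 6.51 in cells, both with overlap. MT-TQ to MT-TM also overlapped, at 1.30 to 6.01 in exosomes and 1.74 to 5.44 in cells. Of these 4 ratios and that of MT-TP to MT-TT, 2 thus separated the groups, in opposite directions. Among all single features, 21.6% had every exosome library above every cell library in TMM-scaled CPM, and 20.1% had every one below. No such share was taken over other ratios.

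Levels did not follow the order of the genes on the transcript. Per base, MT-TE averaged 148 CPM per nt in exosomes and 27.4 in cells, MT-TY 32.2 and 11.3, and MT-TQ, read last, 5.91 and 1.79. MT-TN was at 3.34 CPM per nt in exosomes and 1.84 in cells, MT-TP at 2.69 and 3.52, MT-TA at 1.799 and 0.419, MT-TS1 at 1.12 and 0.418, and MT-TC at 0.870 and 0.503. MT-TE ranked first and MT-TY second in all 8 libraries. MT-TQ was the third and MT-TN the fourth in every exosome library, whereas MT-TP was the third in every cell library, and the lower ranks changed places between libraries. MT-TY and MT-TC share a base yet differed 11.1-fold to 75.5-fold per base in exosomes and 9.14-fold to 113-fold in cells.

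Within the 8, MT-TE took 69.2%, 79.3%, 80.3%, 61.0% and 72.5% of counts in exosomes 1 to 5, against 56.7%, 57.1% and 61.0% in cells 1 to 3. Exosome 4 and cell 3 had the same rounded value, and the other exosome libraries lay above all cells. MT-TP took 0.702% to 2.51% in exosomes and 2.97% to 11.9% in cells, without overlap, so that MT-TE exceeded MT-TP 28.5-fold to 85.6-fold per base in exosomes and 4.69-fold to 18.9-fold in cells. MT-TY took 11.0% to 30.8% in exosomes and 13.8% to 35.1% in cells; its high values were in exosome 4 and cell 2.

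**Figure D5:**
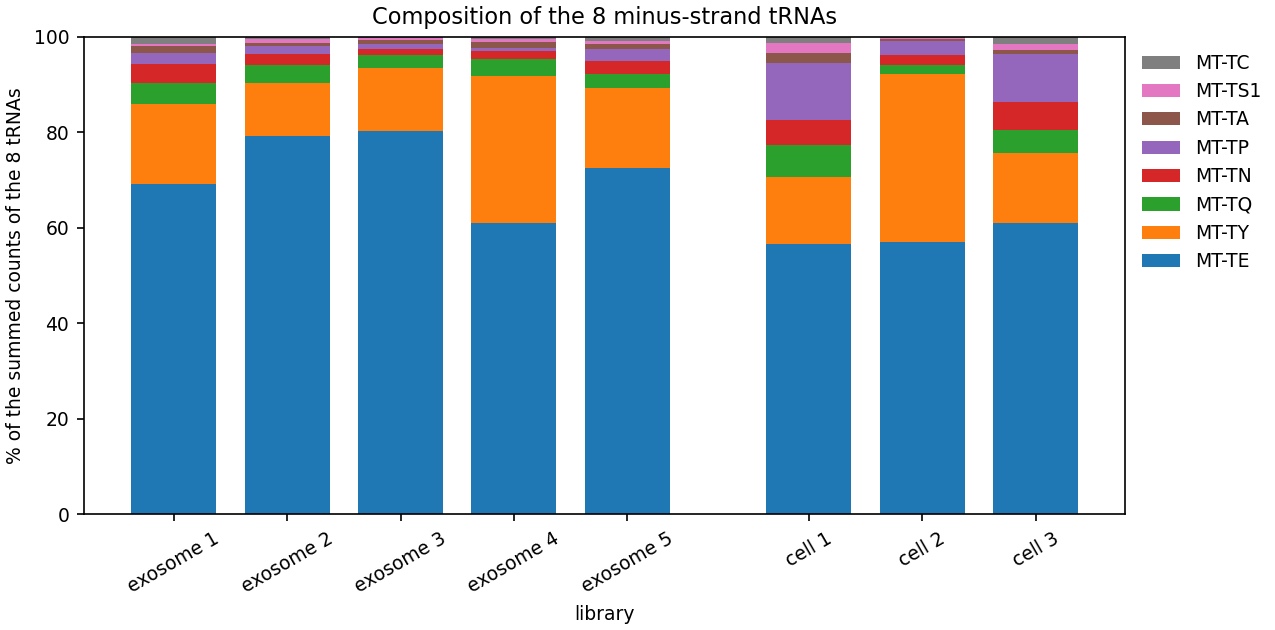
Share of each tRNA in the summed counts of the 8, in percent, for each exosome and cell library. MT-TE forms the largest part in all 8 libraries (61.0% to 80.3% in exosomes, 56.7% to 61.0% in cells), and the MT-TP part is wider in cells.

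Across libraries the 8 varied together in part. Exosome 3 was the highest exosome library for all 8, and cell 2 the lowest cell library for 6. Pearson's r of log2 CPM between members, over the 8 libraries and as a description only, had a median of 0.72 over 28 pairs (-0.09 to 0.95). Against the sum of the other 7, r was 0.93 for MT-TE, 0.90 for MT-TQ and 0.20 for MT-TP. For members other than MT-TE that sum was mostly MT-TE, against which alone r was 0.91 for MT-TQ and 0.24 for MT-TP. The summed 8 were likewise mostly MT-TE (56.7% to 80.3% of their counts). Among 575 features of other chromosomes with at least 100 counts on average in each group, those most like the summed 8 were features 7809, 23758, 7517 and 7791, numbered features of 71 to 83 nt, and MIR126, all with r = 0.80 over 8 libraries that share group and scaling. MIR126 is a miRNA of endothelium and platelets and belongs to the list of other tissues, of whose 8 tested miRNAs 4 (MIR122, MIR143, MIR126 and MIR203) were called higher in exosomes, where 20.7% of all features were. MIR203 was near the floor, with 148 counts over all exosome libraries and 11 over all cell libraries. The other 4 were not called, with log2 fold changes of 0.61 for MIR192, 0.40 for MIR223, 0.86 for MIR486 and -1.28 for MIR9-1. MIR122, of liver, had 19.9, 35.3, 114, 37.5 and 70.05 CPM in exosomes 1 to 5, against 1.34, 2.00 and 0.424 CPM in cells 1 to 3. Like the 8 tRNAs it was highest in exosome 3. Its next highest value was in exosome 5, where the 8 took their lowest exosome share of all counts (0.279%). The part of RNA from other sources in the tRNA values was not tested.

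The 3 calls were lost in a pair of further settings. With library size set to the counts on the 24 mitochondrial features, edgeR called none of the 8 (0 at an unadjusted p under 0.05; no other tool was run so), where 7.11% of all features were called higher; MT-TE was then at log2 1.05 (adjusted p = 0.358), MT-TA at 0.83, MT-TQ at 0.48 and MT-TP at -1.55 (adjusted p = 0.120). MT-TF was called lower there (log2 -2.0, adjusted p = 0.0426). Without exosomes 2 and 3 together, the libraries richest in mitochondrial RNA, edgeR again called none of the 8 (0 at an unadjusted p under 0.05; no other tool was run so) while 20.1% of all features were called higher; MT-TE was at 1.26 (adjusted p = 0.107), MT-TA at 1.42 (adjusted p = 0.117) and MT-TQ at 0.84 (adjusted p = 0.343).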

How the data were processed

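Small RNA libraries of MEC-1 exosomes (n = 5) and cells (n = 3) were compared. Each deposited table gives raw counts for non-coding RNA features, in the layout of featureCounts per the file headers. STAR, featureCounts, cutadapt 1.1, DESeq2 1.8.2 and the genome build GRCh37 (hg19, hs37d5) are listed in the submitters' processing notes. Settings for strand, and for reads that also match nuclear copies of mitochondrial DNA, were not given in the sources used here. Groups and replicate numbers came from sample titles.

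Counts were tested on all features with edgeR 4.0.16 (R 4.3.3): quasi-likelihood test, TMM factors, default filter on low counts (minimum 10), Benjamini-Hochberg adjustment, with 0.05 as the limit of the adjusted p for a call. Standard errors are the absolute log2 fold change over the root of F. Log2 CPM for correlations used a pseudocount of 0.5 CPM. Alternatives were DESeq2 1.42.0, limma-voom 3.58.1, other scalings and filters, feature sets and left-out libraries. For every share of a single library, the 95% Wilson interval was at most 0.774 percentage points wide. These intervals cover the counting error of reads only, and molecular identifiers are not named in the sources used here.

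Named were all 8 members, mitochondrial genes next to them or for the same amino acid, and the 5 features nearest in pattern. Outside this rule, MT-TF was named after its values were seen, and miRNAs of the 2 marker lists were named as context. Members and lists were chosen with earlier results of these data known.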

Additional observations from a re-analysis of the deposited data

Results flagged for a closer look

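In exosomes, 2 values had a single library far from the other 4, both in exosome 3, whose gap to the next library was more than 0.71 of the whole range; chance gives such a gap in about 1 of 20 groups of normally distributed values. In all 10 quantities were screened, the 8 levels and 2 summed shares, which are not independent because the sums contain the members. MT-TA was at 287 CPM in exosome 3 and at 56.3 to 119 CPM in the other exosomes (gap 0.726 of the range). The 8 tRNAs took 4.79% of all counts in exosome 3 and 0.279% to 1.47% in the other exosomes (gap 0.737 of the range). MT-TE, at 27303 CPM in exosome 3, had a gap of 0.682 and stayed under that limit.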

How the results depend on the processing

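Of 8 tRNAs, 3 were called higher in the analysis as reported and none lower. The count was 0 when scaled to the 24 mitochondrial features and without exosomes 2 and 3 together (a setting chosen after seeing the data), and 5 with no filter on low counts, where MT-TY and MT-TS1 were added. Leaving out 1 library at a time gave 1 to 5 calls, 1 without cell 1 and 5 without cell 3. Over all features, 325 of 2159 were called higher with no filter, 179 of 1278 without cell 1 and 224 of 1258 without cell 3. With the other alternatives the count of the 8 was 2 to 4. All of these calls were higher. Over all features, 162 of 1105 were called higher with the replicate block and 234 of 863 with at least 50 counts in 3 libraries. In either direction, 30.1% (replicate block) to 49.6% (at least 50 counts in 3 libraries) of all features were called. Among 21 alternatives, MT-TE and MT-TA were called in 18 each, MT-TQ in 14, MT-TY in 6, MT-TS1, MT-TC and MT-TN in 1 each and MT-TP in none; MT-TE, MT-TA and MT-TQ kept their sign in all 21. Values that turned in sign, without a call there, were MT-TN, at -0.12 when scaled to mitochondrial features, and MT-TP, at 0.11 without exosome 4, 0.0220 with the replicate block and 0.0481 in the same 6 libraries with no replicate block; with 1 library left out it ran from -0.76 (without cell 2) to 0.47 (without cell 3). The median of the 8 was 0.26 when scaled to mitochondrial features, where all features had a median of -0.92; total-count scaling gave all features 0.19 and upper-quartile scaling 0.25.

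All features called numbered 507 (48.1% of them higher), and 333 with the replicate block on replicates 1 to 3, against 398 in the same libraries with no replicate block. The numbers were not taken to pair samples, since the design text does not name the pairs. Deviations from the group mean correlated at 0.104, -0.0821 and 0.162 for same-numbered libraries and at -0.194 to 0.0742 for differently numbered ones. With 3 libraries per group these values cannot decide the pairing. The block left 3 of the 8 called. Leaving out 1 library gave 413 calls (without cell 3, 32.8% of features tested) to 491 calls (without exosome 5, 42.4%) over all features. Of the calls, 21.2% were higher when scaled to mitochondrial features. The difference in the share of all counts was 0.653 to 1.78 percentage points with 1 library left out, 0.474 without exosomes 2 and 3, 2.20 without the large rRNA features and 1.71 with near-identical features counted once, settings added after seeing the data. The cause of these changes was not tested.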
